A study of Mus musculus with 28 samples.

Results

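The comparison set the effect of antibody blockade in Tim-3+PD-1+ CD8+ tumour-infiltrating lymphocytes (DP TILs) against its effect in Tim-3-PD-1- CD8+ TILs (DN TILs). For every gene, the difference of effects was the log2 fold change of blockade over isotype in DP cells minus the same log2 fold change in DN cells, so a positive value means a more positive response in DP cells. All 12 bulk libraries of the treatment experiment entered, out of 28 samples in the series. The 4 groups were DP cells under blockade, DP cells under isotype control, DN cells under blockade and DN cells under isotype control, with 3 libraries each. All came from wild-type C57BL/6 mice bearing MC38-OVA, a mouse colon carcinoma line that carries ovalbumin, and cells were sorted on day 12 after implantation. Blockade was a combination of antibodies to PD-1 and Tim-3, and controls received isotype antibodies. About 2000 sorted cells were lysed per library. The labels do not say whether libraries of a group came from separate mice, so the spread behind each p-value is that between these libraries and may be technical.

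PD-1 (gene Pdcd1) and Tim-3 (Havcr2) are inhibitory receptors of activated T cells, and cells that carry both in tumours are known as highly differentiated, dysfunctional effector cells. CD8+ TILs without either receptor are a mixture that includes naive-like, memory-precursor-like and effector-like cells. Naive and memory T cells keep homing receptors such as Ccr7 and transcription factors such as Tcf7 and Lef1, and lose them as effector genes such as perforin (Prf1), granzymes and interferon gamma (Ifng) come up.

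The libraries held 8005818 to 13579262 counts, and 12710 of 20603 genes passed the filter on low counts. Levels are CPM (counts scaled to library size and by TMM factors), which compare a gene between libraries but not genes of different length. The gates were visible in the RNA. Pdcd1 lay at 531 to 628 CPM in the 6 DP libraries and 25.4 to 136 CPM in the 6 DN libraries, and Havcr2 at 245 to 391 CPM in DP and 2.48 to 36.4 CPM in DN libraries. Markers of T cells were present throughout, with summed levels of 6170 to 6650 CPM in DP blockade, 5300 to 6490 CPM in DP isotype, 4430 to 5780 CPM in DN blockade and 4560 to 6150 CPM in DN isotype libraries. The list of blood genes (red cells and platelets), in contrast, separated blockade from isotype libraries in both populations, and the list of plasmacytoid dendritic cell genes was higher in DN than in DP libraries. These values stand beside the results they move with.

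No gene passed the test of the difference of effects itself. With edgeR's quasi-likelihood test at a Benjamini-Hochberg adjusted p under 0.05 (called), 0 of 12710 genes were called (background 0%), and the smallest adjusted p was 0.152. At an unadjusted p under 0.05, 1070 genes differed (8.42%), of which 580 were more positive in DP cells (4.56%) and 490 more negative (3.86%). DESeq2 called 113 of the 4578 genes to which it gave an adjusted p (2.47%), with 79 more positive and 34 more negative in DP cells. All 113 were among the 1070. Without the filter on low counts edgeR called 7 genes, among them Cd4, Havcr2, Dusp10, Fcgr1, Lyz2 and 4931406H21Rik. Dropping DN blockade replicate 3 gave 3 calls (C3, Lyz2 and Fcgr1), and dropping DN blockade replicate 1 gave 1 (Pdcd1). The precision of the difference was limited, with a median standard error of 0.294 on the log2 scale against 0.207 for the DP and 0.208 for the DN effect. The 95% interval of the difference lay wholly within a 2-fold change either way for 6891 genes (54.2%).

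Taken one population at a time, the numbers of called genes were far apart. In DP cells 8 genes were called (0.0629%), 1 higher and 7 lower under blockade, and in DN cells 142 were called (1.12%), 66 higher and 76 lower. At an unadjusted p under 0.05, 445 genes were higher (3.5%) and 464 lower (3.65%) in DP cells, against 860 higher (6.77%) and 1121 lower (8.82%) in DN cells. A gene called in DN and not in DP cells is not thereby shown to respond differently, and by the rule that the difference must pass as well there were 0 DN-only, 0 DP-only and 0 opposed responses. The remaining 136 genes called in one population, 135 in DN and 1 in DP cells, were therefore undecided. The counts moved with single libraries. Dropping DN isotype replicate 1, 2 or 3 gave 22, 28 or 229 DN calls, and dropping DN blockade replicate 1 or 3 gave 82 or 42. All libraries share an estimate of the spread, so the DN count was also 76, 78 or 66 after dropping DP blockade replicate 1, 2 or 3, and 72 or 57 after dropping DP isotype replicate 1 or 3. For DP cells, 5 calls were left after dropping DP blockade replicate 1 or 2, and 3 or 4 after dropping DP isotype replicate 1 or 3. DN-only responses numbered 1 when DN blockade replicate 1 was dropped and 3 when DN blockade replicate 3 was dropped.

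Genes called in DN cells mostly pointed the same way in DP cells, at a much smaller size. Of the 142, 107 (75.4%) had the same sign in both, against 54.7% of all tested genes. Their median size in DN cells was 0.91 on the log2 scale, and their median DP effect in that same direction was 0.15. The 66 that rose in DN cells had a median effect of 0.20 in DP and 1.22 in DN cells, and 52 of them were also above 0 in DP cells. For the 76 that fell in DN cells the medians were -0.08 in DP and -0.76 in DN cells, and 55 of them were also below 0 in DP cells. The choice of genes by their DN effect favours large DN values, so these sizes are descriptive. On the log2 scale 137 of the 142 had the smaller effect in DP cells, and on the CPM scale the change was larger in DP cells for 17 of the 142. Across all 12710 genes the effects had a Pearson correlation of 0.273, and 0.317 over the 7011 genes with a mean log2 CPM above 4; genes are not independent, so no p is given.

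**Figure D1:**
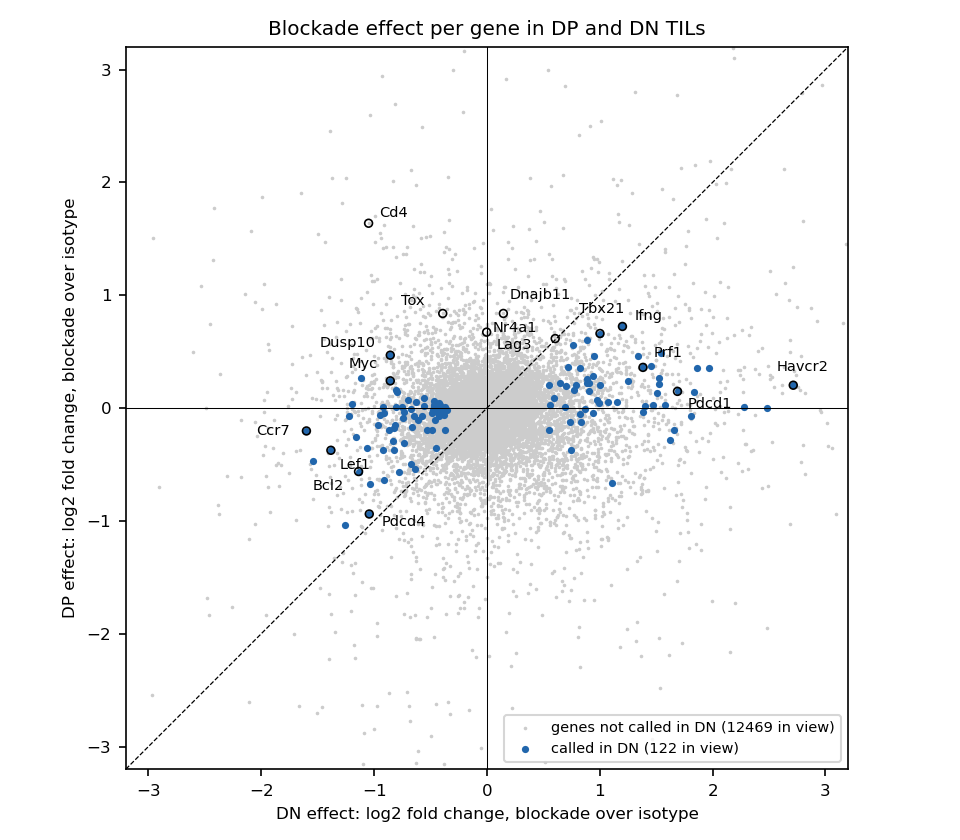
Each point is a gene, with its blockade effect in DN cells on the horizontal axis and in DP cells on the vertical axis, both as log2 fold changes of blockade over isotype. The 122 blue points in view are genes called in DN cells; most lie near the horizontal axis, well off the dashed line of equal effects, while Pdcd4, Nr4a1, Tbx21 and Ifng lie near that line and Cd4 and Tox lie in the upper left quadrant. The 119 genes with an effect beyond 3.2 in either population are not drawn.

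Shared responses were 7 genes, all lower under blockade in both populations, among them Alas2, Hba-a2, Hbb-b1, Hbb-b2, Apol11b and Pdcd4. Their number was 3 after dropping DP isotype replicate 1 and 4 after dropping DP isotype replicate 3. Alas2, the enzyme that starts haem synthesis in red cell precursors, lay at 0.392, 0.229 and 0.742 CPM in DP blockade libraries, against 44.6, 40.4 and 80.3 CPM in DP isotype libraries. The DN libraries held 0.910, 0.127 and 0.297 CPM under blockade, against 80.2, 126.8 and 77.2 CPM under isotype. The groups were far apart in both populations, with a log2 fold change of -6.93 in DP (adjusted p = 3.86e-05) and -7.64 in DN cells (adjusted p = 1.76e-05, edgeR). The difference was 0.70 ± 0.88 (SE), with a 95% interval of -1.20 to 2.61.

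Haemoglobin genes showed the same split. Hba-a2, an alpha globin gene, had 60.1, 22.3 and 61.6 CPM in DP isotype and 81.0, 154.3 and 78.2 CPM in DN isotype libraries, and 0 counts in all 6 blockade libraries. With 3 counts over a group as the limit for 0, it was at least 586-fold lower in DP and at least 972-fold lower in DN cells. By the same limit Apol11b, an apolipoprotein L family gene, was at least 52.9-fold lower in DP and at least 37.1-fold lower in DN cells. Hbb-b2, a beta globin gene, had 0, 0.153 and 0 CPM in DP blockade libraries, against 90.1, 89.7 and 149.7 CPM in DP isotype libraries. The DN libraries had 3.34, 0 and 0 CPM under blockade, against 113.8, 232.0 and 137.5 CPM under isotype. How reads were split between the globin copies, which are nearly the same in sequence, is uncertain. The summed level of the 9 red cell and platelet markers in the table was 4.54 to 19.0 CPM in DP blockade, 1410 to 3290 CPM in DP isotype, 0.759 to 121 CPM in DN blockade and 2710 to 5320 CPM in DN isotype libraries. Sorted CD8+ T cells do not transcribe globins, and in bulk libraries fewer cells of a type and less RNA per cell cannot be told apart. The part of red cells in the other results was not tested.

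Promoters of 2 of these genes are shown because both fell in both populations and both hold the core letters bound by GATA factors, which drive red cell genes. Windows run from 250 bases before to 50 bases after the annotated start and come from RefSeq, GRCm38.p6; capitals mark the matches. The letters searched were AGATAA and TGATAA on both strands, found in 18.6% of all 32851 promoter windows and in 5 of the 7 blood marker genes that had one. A match is a description of the letters and not a mapped binding site.
Alas2, chrX:150547167-150547466, plus strand: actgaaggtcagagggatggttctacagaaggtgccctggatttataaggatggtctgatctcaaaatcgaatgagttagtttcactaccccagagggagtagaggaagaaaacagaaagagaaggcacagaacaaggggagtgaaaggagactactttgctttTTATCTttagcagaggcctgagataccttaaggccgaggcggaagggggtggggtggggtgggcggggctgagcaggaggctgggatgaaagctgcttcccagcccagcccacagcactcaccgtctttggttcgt
Hba-a2, chr11:32296242-32296541, plus strand: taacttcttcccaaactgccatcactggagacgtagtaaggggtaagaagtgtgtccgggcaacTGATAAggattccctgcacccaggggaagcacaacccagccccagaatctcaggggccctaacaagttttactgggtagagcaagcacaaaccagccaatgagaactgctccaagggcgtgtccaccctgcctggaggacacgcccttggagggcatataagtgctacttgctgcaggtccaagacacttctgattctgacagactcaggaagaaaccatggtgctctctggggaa

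Pdcd4, an inhibitor of translation initiation, was the shared response with a level well above 0 in every group. Its level was 70.2, 77.0 and 98.02 CPM in DP blockade libraries, against 177.3, 139.6 and 153.0 CPM in DP isotype libraries. DN cells had 164.5, 180.5 and 154.5 CPM under blockade, against 375.7, 360.9 and 292.9 CPM under isotype. Blockade and isotype libraries did not overlap in either population. The log2 fold change was -0.94 in DP (adjusted p = 0.0343) and -1.04 in DN cells (adjusted p = 0.00968, edgeR), and the difference was 0.10 with a 95% interval of -0.33 to 0.54. The Pdcd4 DP effect was not called when any of DP blockade replicates 1 and 2, DP isotype replicates 1, 2 and 3, DN blockade replicates 1 and 3 or DN isotype replicate 1 was left out, with adjusted p between 0.0584 and 0.266.

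A test of the mean of both effects, added after values were seen, called more genes. A mean can pass on the response of 1 population, so a call does not show a response in both. The test called 72 genes (0.566%), 34 higher and 38 lower. All had the same sign in both populations, which a test of a mean favours by its construction. Of the 72, 20 were called in neither population alone. Beside globins, the lower ones included Fech, the last enzyme of haem synthesis, Txnip and Tsc22d3, which are high in resting T cells, and Bcl2, a survival factor of naive and memory cells. Among the higher ones were Tbx21, Ifng, Nr4a1, Nr4a2 and Nrp1. Havcr2, Pdcd1 and Prf1 were also among the higher ones, with DP effects of 0.20, 0.15 and 0.36 and a call in DN cells alone. For 31 of the 72 the interval of the difference lay within a 2-fold change. For 29 of the 72 the difference had an unadjusted p under 0.05 (8.42% of all genes), and 25 of these 29 had the smaller response in DP cells. The count fell to 34, 31 and 47 without DP blockade replicates 1, 2 and 3, to 16, 24 and 23 without DP isotype replicates 1, 2 and 3, and to 36 without DN isotype replicate 1; it was 113 without DN isotype replicate 3.

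Tbx21 encodes T-bet, the transcription factor of type 1 effector T cells. It lay at 241, 264 and 258 CPM in DP blockade libraries, against 138.0, 170.0 and 174.7 CPM in DP isotype libraries, and at 147.7, 155.2 and 197.4 CPM in DN blockade libraries, against 76.0, 101.2 and 72.7 CPM in DN isotype libraries. No blockade library overlapped with an isotype library of its population. The effect was 0.66 in DP and 1.002 in DN cells on the log2 scale, and the difference was -0.34 with an interval of -0.79 to 0.11. The mean of both effects, 0.83, passed the test (adjusted p = 0.00431, edgeR).

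For Ifng, the cytokine interferon gamma, the population with the larger change depended on the scale. Its level was 238, 179 and 147 CPM in DP blockade libraries, against 116, 119 and 107 CPM in DP isotype libraries, and 28.7, 47.8 and 52.2 CPM in DN blockade libraries, against 16.4, 20.1 and 19.4 CPM in DN isotype libraries. On the log2 scale the DN effect of 1.20 exceeded the DP effect of 0.72, whereas in CPM the increase was 74.1 ± 26.8 in DP and 24.3 ± 7.29 in DN cells (SE of the difference, n = 3 per group). The log2 difference of -0.48 had an interval of -1.12 to 0.16, which includes 0. Granzyme B (Gzmb) gave the same order, with log2 effects of 0.48 in DP and 0.93 in DN cells, a difference of -0.45 with an interval of -1.14 to 0.23, and CPM increases of 808 ± 342 in DP and 267 ± 125 in DN cells. Perforin (Prf1), the pore-forming protein of cytotoxic granules, had a log2 effect of 0.36 in DP and 1.38 in DN cells, against CPM increases of 252 ± 184 in DP and 66.0 ± 14.5 in DN cells.

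Genes induced early by antigen receptor signals had close effects in both populations. Nr4a1 (Nur77) had 554, 523 and 507 CPM in DP blockade libraries, against 338, 282 and 414 CPM in DP isotype libraries. DN cells had 543, 657 and 549 CPM under blockade, against 366, 467 and 317 CPM under isotype. The groups did not overlap in either population, the effects were 0.62 in DP and 0.61 in DN cells, and the difference was 0.01 with an interval of -0.46 to 0.49. Nr4a2, from the same family of nuclear receptors, was 0.49 higher in DP and 0.61 higher in DN cells on the log2 scale, with a difference of -0.12 and an interval of -0.53 to 0.29. Over the 20 immediate early genes the median effect was 0.34 in DP and 0.34 in DN cells, and 17 were above 0 in both. For 1 member the difference had an unadjusted p under 0.05 (8.42% of all genes). That gene was Egr1, called in DN cells with an effect of 0.59, against 0.09 in DP cells. No member was called in DP cells and 2 were called higher in DN cells.

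**Figure D2:**
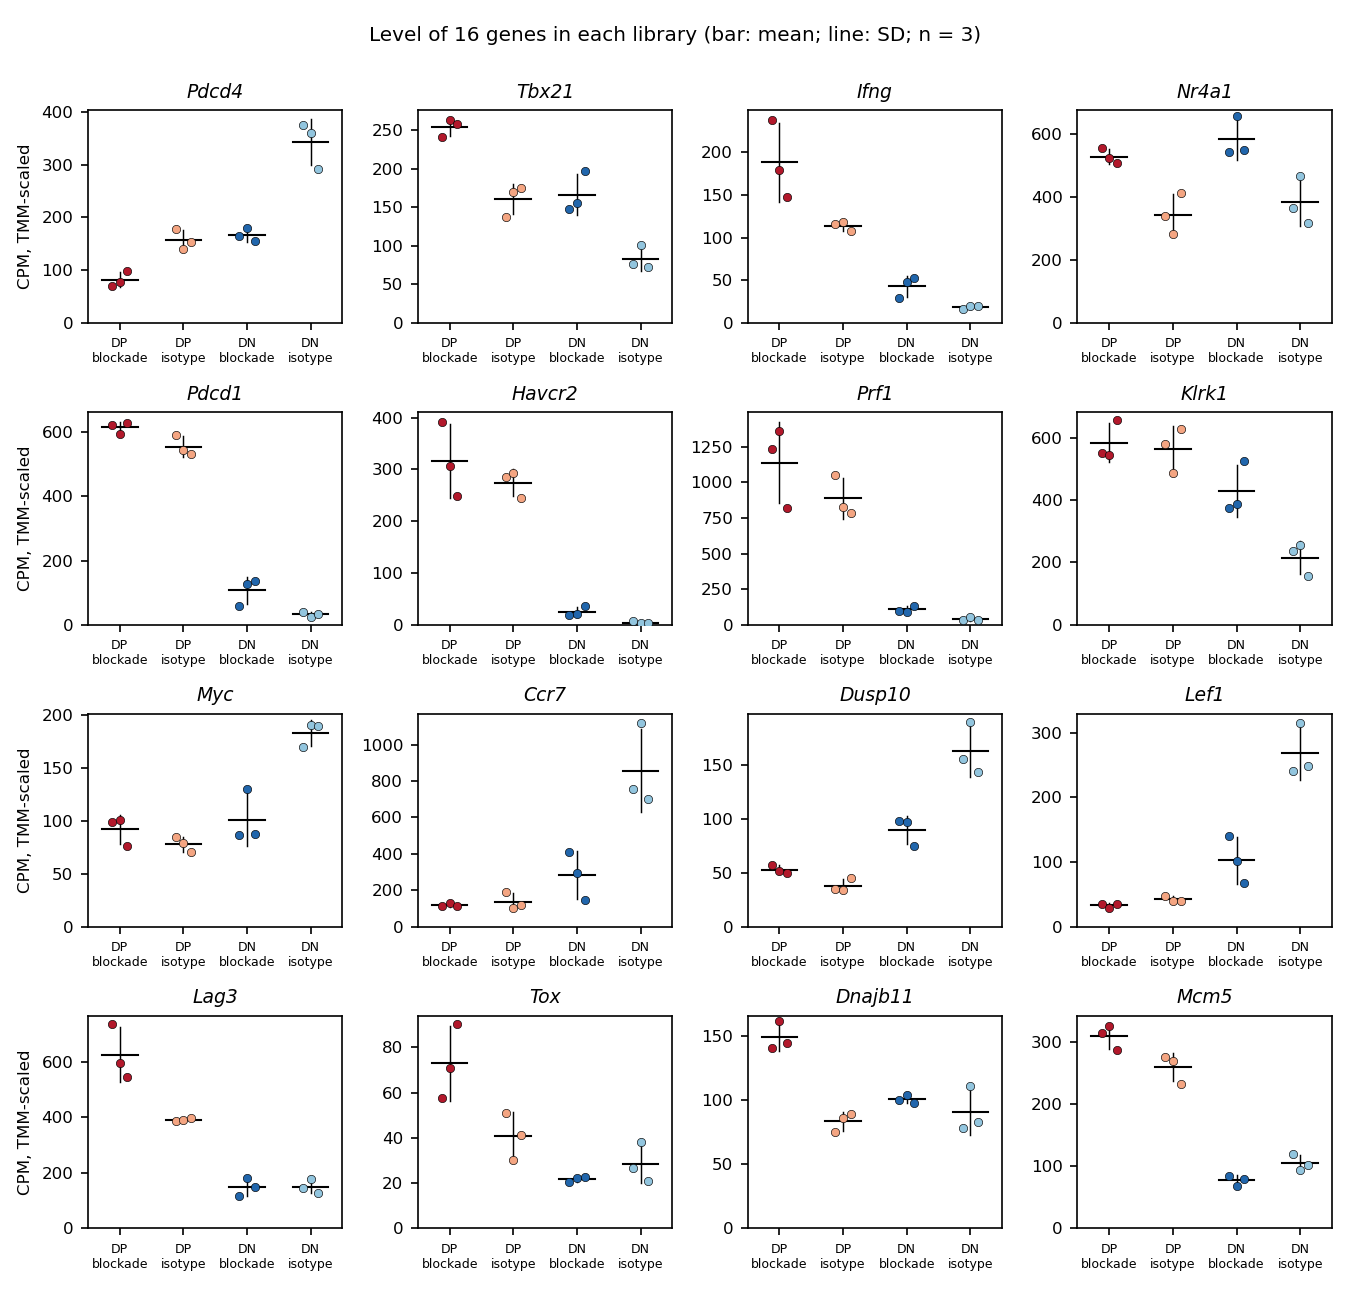
Level of 16 genes in each of the 12 libraries, in CPM with axes from 0; the horizontal bar is the group mean and the vertical line its SD (n = 3). In the upper row blockade and isotype libraries are separate in both populations, and in the second row every gene was called higher in DN cells. The third row holds members of the naive and homing gene list (Myc, Ccr7 and Lef1) and Dusp10. In the bottom row every DP blockade library lies above every DP isotype library.

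Naive and homing genes had the widest gap in median effect among the 24 gene lists that mark no other cell type. Of the 21 tested members, 20 had a positive difference of effects, and 13 of these had an unadjusted p under 0.05 (4.56% of all genes); 1 member, Igfbp4, went the other way. The median effect was -0.04 in DP and -0.82 in DN cells and the median difference was 1.01, where the medians over all genes were -0.01 in DP, -0.01 in DN and -0.01 for the difference. Leaving out any one library, Rn45s or changing the scaling kept the median difference between 0.78 and 1.13. In DN cells 5 members were called lower, Myc, Lef1, Foxp1, Ccr7 and Pik3ip1, and in DP cells none was called. No member passed the edgeR test of the difference, while DESeq2 called 4. The summed level of the list was 879 to 1260 CPM in DP blockade, 1050 to 1350 CPM in DP isotype, 2740 to 3360 CPM in DN blockade and 4570 to 5780 CPM in DN isotype libraries. Markers of other cells moved the same way in DN cells. The sum of the plasmacytoid dendritic cell list, which shares Ccr9 with the naive and homing list, was 1660 to 2570 CPM in DN blockade and 2560 to 3880 CPM in DN isotype libraries, and that of the blood list 0.759 to 121 CPM in DN blockade and 2710 to 5320 CPM in DN isotype libraries. In DP cells the plasmacytoid dendritic cell sum was 751 to 852 CPM under blockade and 616 to 658 CPM under isotype. Irf8, which T cells also express, had 444, 428 and 293 CPM in DP blockade and 257, 242 and 223 CPM in DP isotype libraries. The members of the plasmacytoid dendritic cell list were split in DP cells, with 7 of 14 effects above 0 and a median of -0.18. The blood sum in DP cells was 4.54 to 19.0 CPM under blockade and 1410 to 3290 CPM under isotype. The part of these other cells in the difference was not tested.

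Ccr7, the receptor that guides naive T cells to lymph nodes, had 112.9, 128.4 and 114.2 CPM in DP blockade libraries, against 189.5, 100.5 and 119.4 CPM in DP isotype libraries. In DN cells it had 409, 295 and 144 CPM under blockade, against 755, 1118 and 699 CPM under isotype. The DP groups overlapped and the DN groups did not. Ccr7 fell in DN cells by 1.60 on the log2 scale (adjusted p = 0.0415, edgeR), the DP effect was -0.20, and the difference of 1.397 ± 0.46 had an interval of 0.41 to 2.39 and an adjusted p of 0.400.

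Lef1, a transcription factor of naive and early memory T cells, lay at 35.0, 28.6 and 34.3 CPM in DP blockade libraries, against 47.9, 39.2 and 39.8 CPM in DP isotype libraries. DN libraries held 140, 101 and 67.4 CPM under blockade, against 242, 315 and 248 CPM under isotype. The groups were separate in both populations, but the effect was -0.37 in DP and -1.38 in DN cells (adjusted p = 0.0173 in DN, edgeR). Its difference was 1.01 ± 0.30, with an adjusted p of 0.339 in edgeR and 0.0447 in DESeq2; over all alternatives the adjusted p lay between 0.0447 and 0.635. Tcf7, its partner in early memory cells, had a smaller gap of 0.35, with an interval of -0.29 to 0.98 and an effect of -0.41 in DP and -0.76 in DN cells.

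Klf2 and S1pr1, a transcription factor of quiescent T cells and the egress receptor it controls, had effects of opposite sign in the populations. Groups overlapped in DP cells for both genes, and in DN cells for Klf2. Their differences were 1.15 ± 0.37 and 1.19 ± 0.36, with effects of 0.83 and 0.67 in DP and -0.33 and -0.52 in DN cells. The DN effects had intervals of -0.85 to 0.20 for Klf2 and -1.05 to 0.009 for S1pr1, both of which include 0. Klf2 was low in DP cells, with means of 6.83 CPM under blockade and 3.86 CPM under isotype. For S1pr1 the DP blockade libraries held 22.3, 37.0 and 18.6 CPM, against 13.2, 16.2 and 19.8 CPM in DP isotype libraries. The overlap was 1 DP blockade library below the highest DP isotype library. Myc, a driver of growth that is part of the list, fell in DN cells by 0.86, while the DP effect was 0.24 (difference 1.10 ± 0.23, interval 0.61 to 1.59). Dapl1, a gene of naive CD8+ T cells, averaged 1.04 ± 0.37 CPM in DP blockade and 0.92 ± 0.39 CPM in DP isotype libraries, and 10.2 ± 3.87 CPM in DN blockade and 27.3 ± 6.93 CPM in DN isotype libraries (SD, n = 3 each). Its difference was 1.60, with an interval of 0.36 to 2.84.

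The promoter of Dapl1 is shown because, among the 16 naive and homing genes that had a window, it was 1 of the 2 that hold the forkhead core GTAAACA on either strand, in capitals. Forkhead factors such as Foxo1 drive several homing genes. The letters occur in 2 of the 27 windows of these genes (7.41%) and in 3.65% of all windows. Foxo1 itself had effects of -0.05 in DP and -0.51 in DN cells and was called in neither (adjusted p = 0.232 in DN, edgeR).
Dapl1, chr2:59484403-59484702, plus strand: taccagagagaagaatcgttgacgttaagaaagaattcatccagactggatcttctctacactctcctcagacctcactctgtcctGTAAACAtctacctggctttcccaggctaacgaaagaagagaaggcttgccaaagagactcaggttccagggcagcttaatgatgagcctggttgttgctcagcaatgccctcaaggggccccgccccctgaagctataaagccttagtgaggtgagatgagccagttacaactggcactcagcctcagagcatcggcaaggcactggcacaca

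**Figure D3:**
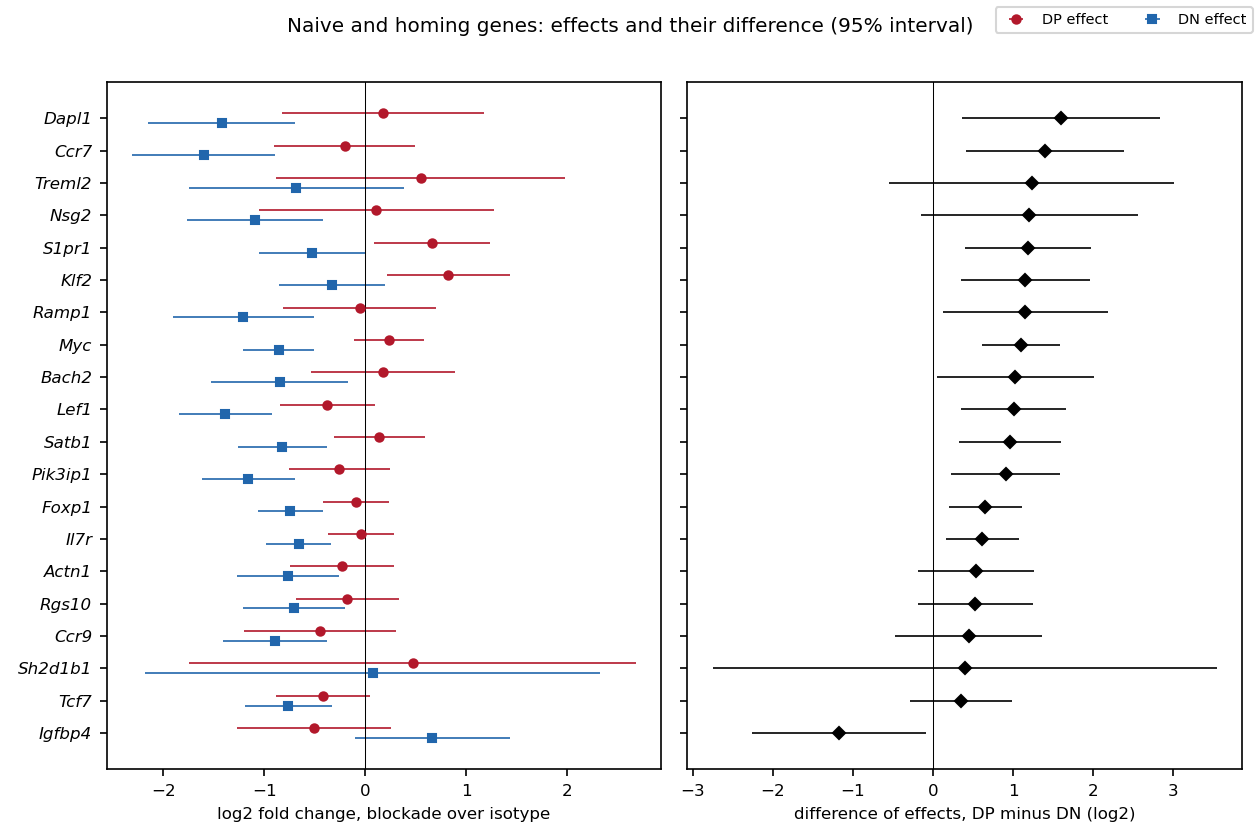
Naive and homing genes (20 of the 21 tested), ordered by the difference of effects. The left panel gives the blockade effect in DP cells (circles) and DN cells (squares), and the right panel the difference of DP minus DN, all on the log2 scale with 95% intervals; among the genes drawn Dapl1 is highest at 1.60 and Igfbp4 alone lies below 0, at -1.17.

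Memory precursor genes leaned the same way by less. The 20 members had a median effect of -0.05 in DP and -0.32 in DN cells, and 13 differences were positive. Of these, 3 had an unadjusted p under 0.05, for Il7r, Id3 and Bach2 (4.56% of all genes), and none the other way. Il7r, Bach2 and Tcf7 are members of the naive and homing list as well. Il7r, the interleukin 7 receptor of naive and memory cells, had 104.0, 119.8 and 101.3 CPM in DP blockade libraries, against 139.0, 94.8 and 100.9 CPM in DP isotype libraries, and 239.5, 276.7 and 243.7 CPM in DN blockade libraries, against 409.5, 452.1 and 335.9 CPM in DN isotype libraries. Its difference was 0.61, with an interval of 0.16 to 1.07. Bcl2 was lower in every blockade library of both populations, with an effect of -0.56 in DP and -1.14 in DN cells (adjusted p = 0.0258 in DN, edgeR).

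Plasmacytoid dendritic cell markers were lower under blockade in DN cells beside the genes with opposite signs. Their sum was 751 to 852 CPM in DP blockade, 616 to 658 CPM in DP isotype, 1660 to 2570 CPM in DN blockade and 2560 to 3880 CPM in DN isotype libraries. Siglech, the surface marker of these cells, had 0 to 0.993 CPM in DP blockade, 0.335 to 7.45 CPM in DP isotype, 214 to 361 CPM in DN blockade and 459 to 725 CPM in DN isotype libraries. Of the 14 markers, 10 were lower in DN cells at an unadjusted p under 0.05 (8.82% of all genes), and none was called. In DP cells 3 were higher (3.5%) and 3 lower (3.65%) at that p, with a median effect of -0.18, although the sum was higher under blockade. Irf8 and Cd4 are expressed by plasmacytoid dendritic cells as well as by T cells. In DP libraries Irf8 alone had 444, 428 and 293 CPM under blockade, against 257, 242 and 223 CPM under isotype. The separate list of 12 dendritic cell markers had a median effect of 0.28 in DP and -0.36 in DN cells. Of its differences, 7 were positive, 4 of them at an unadjusted p under 0.05 (4.56% of all genes), and 5 negative, 0 of them at that p. The part of both cell types in the results for Irf8, Cd4 and Mpeg1 was not tested.

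Cd4 had the smallest p of all differences. It lay at 8.77, 8.63 and 5.01 CPM in DP blockade libraries, against 3.49, 1.11 and 2.60 CPM in DP isotype libraries. DN libraries held 52.6, 83.8 and 57.4 CPM under blockade, against 141.4, 139.6 and 119.5 CPM under isotype. The groups were separate in both populations and in opposite order, and the difference was 2.69 ± 0.42 with an interval of 1.77 to 3.60 (adjusted p = 0.152 in edgeR and 5.2e-08 in DESeq2, 5.2e-08 to 0.401 over the alternatives). The cells were sorted as CD8+, and Cd8a differed little, with effects of 0.12 in DP and -0.07 in DN cells. Irf8, a transcription factor of dendritic cells that activated CD8+ T cells also express, had an effect of 0.69 in DP and -0.53 in DN cells, and Mpeg1, a pore-forming protein of phagocytes, 0.98 in DP and -0.86 in DN cells.

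Dusp10, a phosphatase that restrains stress-activated MAP kinases, had opposite signs with a small error. It had 57.3, 51.3 and 49.3 CPM in DP blockade libraries, against 35.0, 33.7 and 45.3 CPM in DP isotype libraries. In DN cells it had 97.5, 97.2 and 74.7 CPM under blockade, against 155.3, 189.2 and 143.2 CPM under isotype. Neither pair of groups overlapped. The effect was 0.47 in DP cells and -0.86 in DN cells (adjusted p = 0.0249 in DN, edgeR), and the difference of 1.32 ± 0.21 had an interval of 0.87 to 1.78 and an adjusted p of 0.152 in edgeR and 8.04e-06 in DESeq2 (8.04e-06 to 0.401 over the alternatives).

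In the whole table, 86 genes (0.677%) had groups that did not overlap in either population and pointed in opposite directions, 54 of them higher in DP and lower in DN cells and 32 the reverse. The 315 genes (2.48%) that were separate in both populations and pointed the same way were 141 higher and 174 lower. Among the 1070 genes with an unadjusted p under 0.05 for the difference, 845 had opposite signs and 225 the same sign, and a test of a difference favours opposite signs by its construction. Other genes with opposite signs and a small p included Gngt2, a G protein subunit, Scimp, an adaptor of antigen-presenting cells, and Rnf6, a ubiquitin ligase, with differences of 1.65, 2.15 and 0.65. In the reverse direction they included 4931406H21Rik, Tbc1d4, which controls glucose transporter traffic, and Ahnak, a large scaffold protein, with differences of -1.77, -1.11 and -0.74. Ahnak was the most abundant, with 962, 946 and 1059 CPM in DP blockade libraries, against 1077, 1186 and 1137 CPM in DP isotype libraries, and 959, 978 and 1116 CPM in DN blockade libraries, against 774, 721 and 596 CPM in DN isotype libraries.

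Genes of terminal effector cells had larger effects in DN cells. Of 25 members, 21 had a negative difference, 8 of these had an unadjusted p under 0.05 (3.86% of all genes) and none was positive at that p. The median effect was 0.14 in DP and 0.62 in DN cells; 5 members were called higher in DN and none in DP cells. The median difference of -0.39 lay between -0.59 and -0.35 without single libraries, without Rn45s or with the other scaling. Klrk1, the activating receptor NKG2D, had 552, 545 and 658 CPM in DP blockade libraries, against 581, 487 and 630 CPM in DP isotype libraries. DN cells had 374, 388 and 528 CPM under blockade, against 238, 255 and 155 CPM under isotype. The DP groups overlapped and the DN groups did not. Klrk1 rose in DN cells by 0.99 (adjusted p = 0.0306, edgeR), its DP effect was 0.05, and the difference was -0.95 with an interval of -1.51 to -0.38. Klrc1, the inhibitory receptor NKG2A, rose in DN cells by 0.98 against a DP effect of 0.07, and Bhlhe40, a transcription factor of cytokine-producing T cells, by 0.90 against 0.15 in DP cells. Itga1, an integrin of tissue-resident cells outside this list, had the larger gap of -1.70, with an effect of 0.14 in DP and 1.84 in DN cells. All 4 genes were higher in DP isotype than in DN isotype libraries; for Itga1 the means were 82.1 ± 11.3 CPM in DP isotype and 15.97 ± 2.88 CPM in DN isotype libraries (SD, n = 3 each).

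Cytotoxic genes pointed the same way in both populations. Of 23 members, 18 were above 0 in both and 2 below 0 in both. The median effect was 0.37 in DP and 0.60 in DN cells. At an unadjusted p under 0.05, 6 were higher in DP (3.5% of all genes) and 12 in DN cells (6.77%), and 5 differences were negative (3.86%) and none positive (4.56%). Ifng, Prf1 and Gzmk were called higher in DN cells. Gzmf had 1198, 805 and 362 CPM in DP blockade libraries, against 667, 503 and 353 CPM in DP isotype libraries, and 4.55, 14.4 and 2.28 CPM in DN blockade libraries, against 0 counts in the 3 DN isotype libraries, so that it was at least 66.1-fold higher in DN cells under blockade, with no call (adjusted p = 0.0582, edgeR). The chemokine genes Ccl3 and Ccl4, which attract leukocytes, had effects above 0 in both populations, larger in DP cells, without passing a test. For Ccl3 the effect was 1.065 in DP and 0.61 in DN cells, and the interval of the difference was -0.32 to 1.23. Ccl4 had 647, 570 and 470 CPM in DP blockade libraries, against 320, 292 and 316 CPM in DP isotype libraries, and 186, 277 and 248 CPM in DN blockade libraries, against 208, 207 and 137 CPM in DN isotype libraries. Its effect was 0.86 in DP and 0.36 in DN cells, and the difference was 0.50 with an interval of -0.05 to 1.05.

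The genes of the sort, Pdcd1 and Havcr2, showed the largest gaps among inhibitory receptors. Havcr2 lay at 391, 306 and 250 CPM in DP blockade libraries, against 285, 293 and 245 CPM in DP isotype libraries. In DN cells it lay at 18.0, 21.6 and 36.4 CPM under blockade, against 6.32, 2.93 and 2.48 CPM under isotype. The DP groups overlapped and the DN groups did not. Havcr2 rose in DN cells by 2.71 (adjusted p = 0.00713, edgeR), the DP effect was 0.20, and the difference was -2.51 ± 0.43 with an interval of -3.46 to -1.57. For Pdcd1 the effect was 0.15 in DP and 1.69 in DN cells (adjusted p = 0.0166 in DN, edgeR), and the difference was -1.54 with an interval of -2.30 to -0.79. In DN cells under blockade Pdcd1 reached 58.6, 126.8 and 135.9 CPM, against 40.4, 25.4 and 33.8 CPM under isotype, levels well below those of DP cells. The sort was on these 2 proteins, so levels between DP and DN cells are not a finding. Blockade used antibodies to the same receptors, and whether the gates took in the same cells under both treatments was not tested. In CPM the Pdcd1 change was 59.8 ± 20.9 in DP and 73.9 ± 24.8 in DN cells, which differ by less than their errors. The Havcr2 change in CPM was 41.2 ± 43.8 in DP and 21.4 ± 5.76 in DN cells, so the order of the log2 effects was not seen in CPM. The adjusted p of the Havcr2 difference was 0.192 in edgeR and 1.21e-06 in DESeq2, and lay between 1.21e-06 and 0.528 over the alternatives.

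Members of the co-inhibitory list went both ways. Of the 24 members, 5 were called higher in DN cells (Havcr2, Pdcd1, Klrc1, Cxcr6 and Entpd1) and none in DP cells, and 14 differences were negative and 10 positive. At an unadjusted p under 0.05, 5 differences were negative (3.86% of all genes) and 4 positive (4.56%), those of Lag3, Cd200, Cd96 and Nt5e. Lag3, an inhibitory receptor, had 736, 595 and 544 CPM in DP blockade libraries, against 388, 390 and 399 CPM in DP isotype libraries, and 117, 183 and 150 CPM in DN blockade libraries, against 145, 176 and 129 CPM in DN isotype libraries. The DP groups were separate and the DN groups overlapped; the effect was 0.67 in DP cells and close to 0 in DN cells, and the difference was 0.68 with an interval of 0.18 to 1.17 (adjusted p = 0.419, edgeR). Cd200 and Cd96, also members of the co-inhibitory list, had differences of 1.48 and 0.46. Over the list the median effect was 0.09 in DP and 0.34 in DN cells. Entpd1 (CD39), an ectoenzyme of dysfunctional TILs, was higher in both, by 0.35 in DP and 0.83 in DN cells (adjusted p = 0.0424 in DN, edgeR).

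Tox, a transcription factor of exhausted T cells, had opposite signs. Its level was 57.5, 70.9 and 90.5 CPM in DP blockade libraries, against 51.0, 30.1 and 41.3 CPM in DP isotype libraries, and 20.3, 22.3 and 22.7 CPM in DN blockade libraries, against 26.5, 38.1 and 21.0 CPM in DN isotype libraries. The DP groups were separate and the DN groups overlapped. The effect was 0.84 in DP and -0.39 in DN cells, and the difference of 1.23 had an interval of 0.50 to 1.96 and an adjusted p of 0.309 in edgeR. Dnajb11, a chaperone cofactor of the endoplasmic reticulum, was the 1 gene that rose in DP cells by the test. It had 141, 161 and 145 CPM in DP blockade libraries, against 75.0, 85.8 and 89.1 CPM in DP isotype libraries, and 99.8, 104.0 and 97.7 CPM in DN blockade libraries, against 78.2, 111.2 and 83.2 CPM in DN isotype libraries. Its effect was 0.84 in DP (adjusted p = 0.0343, edgeR) and 0.15 in DN cells, and the difference was 0.69 with an interval of 0.30 to 1.08. Of the 28 tested genes of folding in the endoplasmic reticulum, a list drawn up after Dnajb11 was seen, 6 were higher in DP cells at an unadjusted p under 0.05 (3.5% of all genes) and 1 in DN cells (6.77%). At that p 4 were lower in DN cells (8.82%), of which Herpud1 was called, by -0.82 (adjusted p = 0.0145, edgeR) against -0.15 in DP cells. Of the differences, 5 were positive at that p (4.56%) and none negative.

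The median effect over chemokine receptor genes was above 0 in DN cells and near 0 in DP cells, and that of glycolysis genes likewise. The 16 tested chemokine receptors had a median effect of 0.04 in DP and 0.51 in DN cells and a median difference of -0.58. In DN cells 10 of the 16 effects were above 0, and 6 were higher (6.77% of all genes) and 3 lower (8.82%) at an unadjusted p under 0.05. Their summed level was 1450 to 1610 CPM in DP blockade, 1310 to 1680 CPM in DP isotype, 1320 to 1510 CPM in DN blockade and 1480 to 2280 CPM in DN isotype libraries. Cxcr6 and Ccr2, receptors of effector cells that enter tissue, were called higher in DN cells, and Ccr7 was called lower. Cxcr6 had 647, 664 and 728 CPM in DP blockade libraries, against 686, 547 and 783 CPM in DP isotype libraries, and 172, 221 and 424 CPM in DN blockade libraries, against 119, 112 and 79.1 CPM in DN isotype libraries. Of the 18 glycolysis genes 17 had a negative difference with a median of -0.44, but no difference had an unadjusted p under 0.05, and none was called in either population. Dropping DN isotype replicate 2 gave a median of -0.17, dropping DN isotype replicate 3 gave -0.66, and dropping DP blockade replicate 3 gave -0.29. The summed level overlapped between blockade and isotype in both, at 15100 to 17800 CPM in DP blockade, 15200 to 17900 CPM in DP isotype, 8810 to 11500 CPM in DN blockade and 6160 to 10400 CPM in DN isotype libraries. Eno1, an enzyme of that pathway, averaged 2014 ± 166 CPM in DP blockade and 2014 ± 192 CPM in DP isotype libraries, and 1374 ± 253 CPM in DN blockade and 933 ± 367 CPM in DN isotype libraries (SD, n = 3 each). The list of tumour and stroma markers had a median effect of 0.06 in DP and 0.75 in DN cells over 15 tested members. Its sum was 3110 to 3280 CPM in DP blockade and 3010 to 3460 CPM in DP isotype libraries. In DN cells that sum was 2410 to 4420 CPM under blockade and 1370 to 2840 CPM under isotype. The part of such cells in these results was not tested.

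DNA replication genes had a small difference in the reverse direction. Of 26 S phase genes, 22 had a positive difference, 8 of these at an unadjusted p under 0.05 (4.56% of all genes) and none negative at that p. The median effect was 0.20 in DP and -0.14 in DN cells, and no member was called in either. Mcm5, a subunit of the replicative helicase, had 314, 327 and 287 CPM in DP blockade libraries, against 275, 270 and 233 CPM in DP isotype libraries. DN cells had 85.0, 68.6 and 79.2 CPM under blockade, against 119.7, 93.8 and 102.1 CPM under isotype. The groups were separate in both populations and in opposite order, and the difference was 0.69 with an interval of 0.34 to 1.05. Mcm7, of the same complex, gave 0.68. The list of mitosis genes had the other sign: of 25 G2/M genes, 22 had a negative difference with a median of -0.30, no difference had an unadjusted p under 0.05, and the median was 0.07 without DN isotype replicate 2. Mki67, a marker of cycling cells, had effects of -0.16 in DP and 0.02 in DN cells. In DN isotype replicate 2 the G2/M sum was 368.7 CPM and the tumour and stroma marker sum 1374 CPM, each the lowest of the 12 libraries. The part of tumour and stroma cells in the mitosis genes was not tested.

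Ribosomal protein genes, a list added after values were seen, had small differences of one sign. All 76 tested had a positive difference, 60 of them at an unadjusted p under 0.05 (4.56% of all genes). The median effect was 0.02 in DP and -0.35 in DN cells, where 17 were called lower. Their summed level was 82700 to 91300 CPM in DP blockade, 79000 to 89700 CPM in DP isotype, 82200 to 91100 CPM in DN blockade and 109000 to 117000 CPM in DN isotype libraries. The DN isotype libraries thus stood above the other 9, which overlapped. Rps19 had 935, 967 and 838 CPM in DP blockade libraries, against 1035, 896 and 943 CPM in DP isotype libraries, and 1103, 1074 and 915 CPM in DN blockade libraries, against 1493, 1606 and 1498 CPM in DN isotype libraries. These genes share much of their control and are not independent of each other, and many have near-identical copies. Of the 113 genes that DESeq2 called for the difference, 20 were ribosomal proteins.

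**Figure D4:**
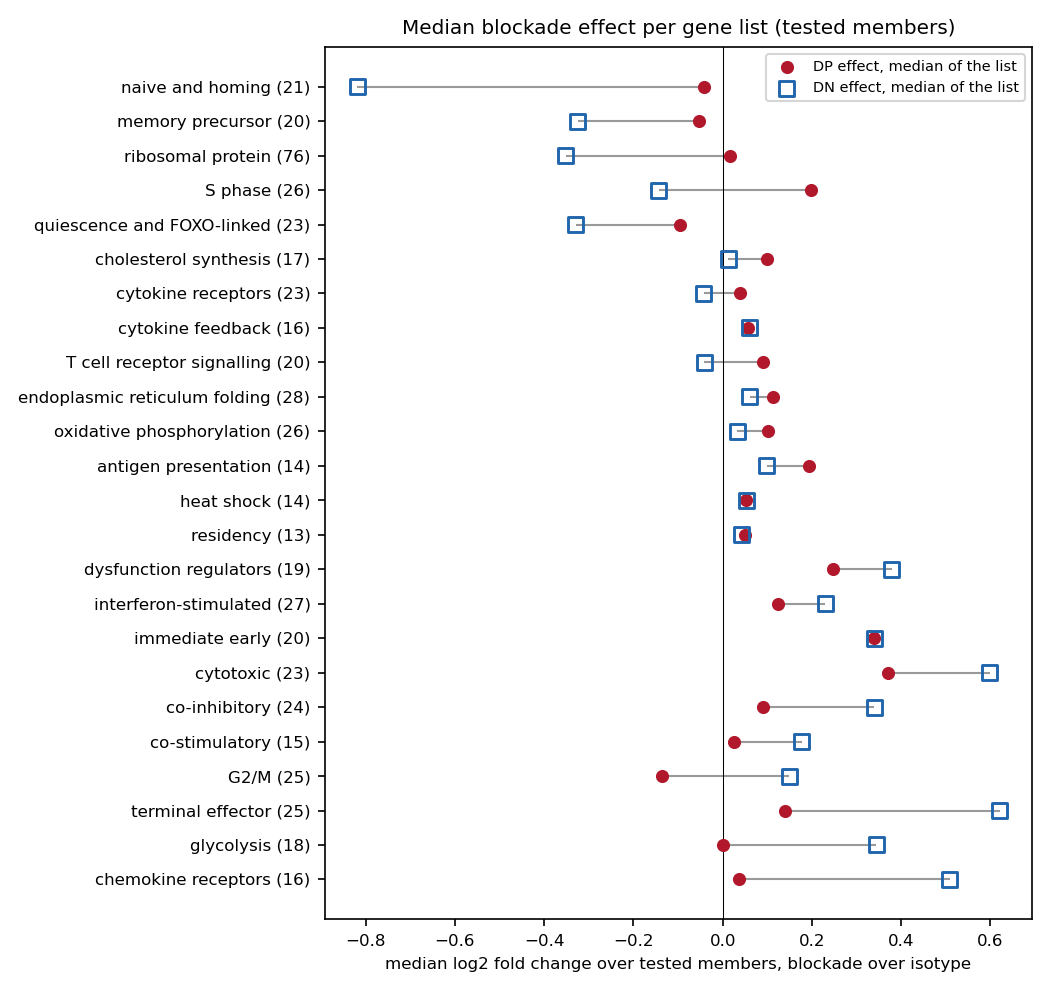
Median log2 effect of blockade in DP cells (filled circles) and DN cells (open squares) for 24 gene lists, with the number of tested members in parentheses, ordered by the median difference over members. Naive and homing genes have the widest gap, at -0.04 in DP and -0.82 in DN cells, and immediate early genes lie at 0.34 in both.

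Interferon-stimulated and antigen presentation genes had small median effects in both populations. The 27 interferon-stimulated genes had a median effect of 0.12 in DP and 0.23 in DN cells. Of their differences, 1 was negative (3.86% of all genes) and none positive (4.56%) at an unadjusted p under 0.05. The median difference of -0.10 was 0.03 at the other end of its range over single libraries and scalings. For 14 antigen presentation genes the medians were 0.19 in DP and 0.10 in DN cells. Oxidative phosphorylation genes had medians of 0.10 in DP and 0.03 in DN cells, and none of the 26 differences had an unadjusted p under 0.05. Genes of antigen receptor signalling, 20 in number, had medians of 0.09 in DP and -0.04 in DN cells. Of their differences, 4 were positive (4.56% of all genes) and none negative (3.86%) at that p.

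Some macrophage genes had large differences on the log2 scale. Lyz2, a lysozyme of macrophages and neutrophils, had 251.9, 186.1 and 121.4 CPM in DP blockade libraries, against 136.1, 112.1 and 108.5 CPM in DP isotype libraries. DN cells had 45.4, 88.7 and 14.1 CPM under blockade, against 3.68, 1.63 and 2.58 CPM under isotype. The DP groups overlapped and the DN groups did not, and the 3 DN blockade libraries spread widely. In CPM the increase of Lyz2 was 67.6 ± 38.7 in DP and 46.8 ± 21.6 in DN cells (SE). Fcgr1, the high-affinity receptor for IgG, had 32.0, 24.9 and 16.7 CPM in DP blockade libraries, against 10.2, 10.7 and 9.12 CPM in DP isotype libraries, and 7.59, 10.0 and 2.18 CPM in DN blockade libraries, against 0 counts in DN isotype libraries. It was thus at least 61.5-fold higher in DN cells under blockade, and both groups of DP libraries were separate as well. In CPM the increase of Fcgr1 was 14.6 ± 4.46 in DP and 6.59 ± 2.31 in DN cells (SE). Of 23 tested myeloid markers, 3 were called higher in DN cells (Fcgr1, Lyz2 and Lyz1), 11 were higher in DN (6.77% of all genes) and 4 in DP cells (3.5%) at an unadjusted p under 0.05. At that p, 2 were lower in DN cells (S100a8 and S100a9; 8.82%) and 1 in DP cells (S100a9; 3.65%). Of the differences, 8 were positive, 2 of them at that p (4.56%), and 15 negative, 5 of them at that p (3.86%). The summed level was 3080 to 3550 CPM in DP blockade, 2460 to 3280 CPM in DP isotype, 2820 to 3480 CPM in DN blockade and 2420 to 3110 CPM in DN isotype libraries. The part of myeloid cells in the differences between TIL populations was not tested.

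**Figure D5:**
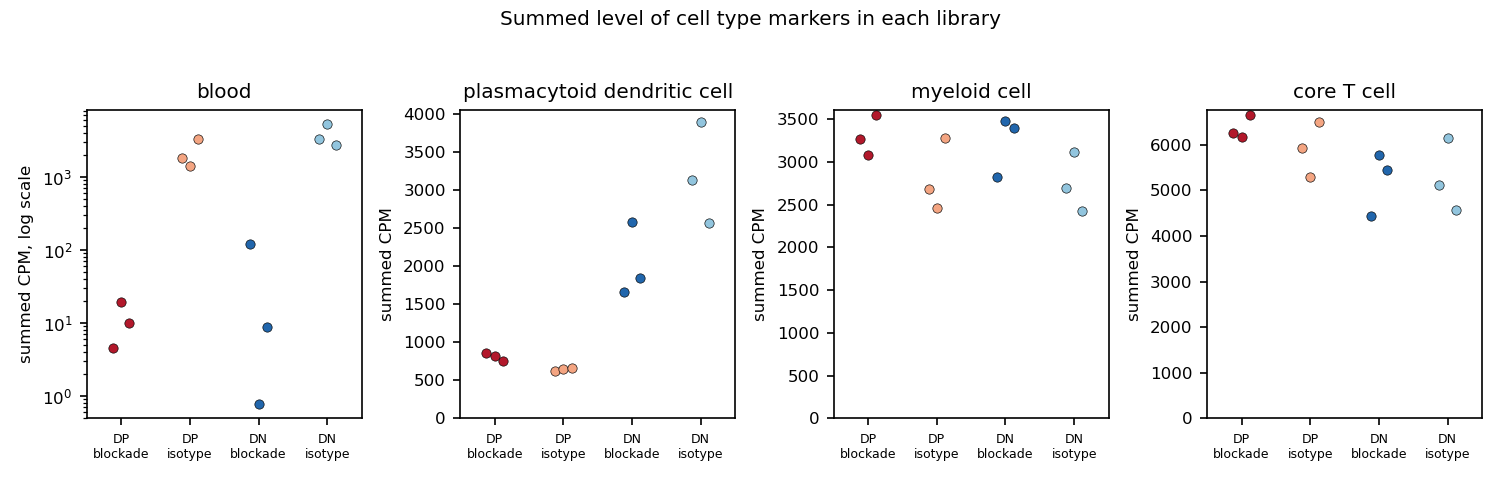
Summed CPM of the markers of 4 cell types in each library; the blood panel has a log axis and the others start at 0. Blood markers separate isotype from blockade libraries in both populations, plasmacytoid dendritic cell markers lie at 2560 to 3880 CPM in the DN isotype libraries, just overlapping with DN blockade libraries at 1660 to 2570 CPM, and T cell markers overlap between blockade and isotype in both populations.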

How the data were processed

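RNA of 12 bulk libraries (DP and DN TILs, blockade and isotype, 3 each) was measured with an adapted SMART-Seq2 protocol, per the labels. The deposited table holds expected counts per gene (30.5% of the values not whole), estimated by the authors; the submitters' processing notes name TopHat, RSEM, DESeq and mm9, without role, order or version. Expected counts were rounded. Library totals were 8005818 to 13579262, which leaves low genes imprecise; limits for 0 counts (3 counts over a group) cover counting error only. Rn45s, a ribosomal RNA gene, made up 11.4 to 18.8% of the counts. Genes were filtered with filterByExpr (minimum count 10), scaled with TMM and fitted in edgeR 4.0.16 (R 4.3.3, quasi-likelihood, group means of all 4 groups, biological coefficient of variation 0.229). Contrasts were the DP effect, the DN effect, their difference and, added later, their mean; standard errors are the log2 fold change divided by the root of F, and intervals are at 95%. Responses were shared (called in both, same sign), DN-only or DP-only (called in 1 and in the difference), opposed (difference called, opposite signs, which may overlap with DN-only or DP-only) or undecided. Lists were described by counts and medians, without a set test. Alternatives used DESeq2 1.42.0, limma 3.58.1, other filters and scalings, left-out libraries and blocks. The test was checked on simulated data.

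Genes and lists, and the comparison itself, were chosen with earlier results of these data known, so counts over them are descriptive. The rule for named genes took the sort genes Pdcd1 and Havcr2; the 12 genes with the smallest p of the difference in each direction; up to 6 shared genes in each direction and up to 6 opposed ones; from every list at most 4 members that passed a test; and a panel of T cell genes. Where too few genes passed, those with the smallest p were taken although they did not pass. It gave 69 genes, some of which are described by counts alone or are not reported here. Chosen outside it, after their values were seen, were Bach2, C3, Ccl3, Ccl4, Cd74, Cd96, Cd200, Dapl1, Dnajb11, Eno1, Fech, Foxo1, Foxp3, Gzmf, H2-Aa, H2-Ab1, Herpud1, Igfbp4, Irf8, Klf2, Mcm5, Mcm7, Mpeg1, Nrp1, Nt5e, Pik3ip1, Rps19, S100a8, S100a9, S1pr1, Siglech, Tsc22d3, Txnip, Ung and Zfp36l2. Sequences are RefSeq promoter windows of GRCm38.p6, matched by symbol, and no coordinates of mm9 were used. The other 16 samples of the series were not analysed here.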

Additional observations from a re-analysis of the deposited data

Results flagged for a closer look

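In 11 named genes every blockade library moved one way against every isotype library in DP cells and the opposite way in DN cells. Among all 12710 tested genes the same held for 86 (0.677%). The difference of effects (DP minus DN, log2) was 2.69 for Cd4, 2.53 for Ggt1, 2.21 for Clec12a, 2.15 for Scimp, 1.65 for Gngt2, 1.32 for Dusp10, 0.90 for Dtd1 and 0.65 for Rnf6, and -1.77 for 4931406H21Rik, -1.11 for Tbc1d4 and -0.74 for Ahnak. The rule that named them selects for such differences. The difference was tested in each and did not pass in edgeR. DESeq2 called it for Cd4, Dusp10, Rnf6 and Ahnak and gave the other genes named here no adjusted p. Clec12a and Scimp, like Cd4, are also expressed by dendritic cells. Plasmacytoid dendritic cell markers summed to 1660 to 2570 CPM in DN blockade and 2560 to 3880 CPM in DN isotype libraries. The separate list of dendritic cell markers summed to 531 to 1010 CPM in DN blockade and 904 to 1200 CPM in DN isotype libraries. In DP libraries that sum was 651 to 808 CPM under blockade and 446 to 767 CPM under isotype. The part of either cell type in these results was not tested.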

How the results depend on the processing

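The 0 calls of the difference held with RLE scaling, the strict filter (mean of at least 50 counts), limma-voom, Rn45s left out and an adjusted p under 0.10. Without a filter on low counts, there were 7 difference, 17 DP, 224 DN, 5 DN-only, 4 opposed and 160 mean effect calls. DESeq2 gave 113 interaction calls (the difference of effects), 63 DP effect calls, 541 DN effect calls, 17 shared responses, 71 DN-only responses, 6 DP-only responses and 92 opposed responses (an opposed gene can also be DN-only or DP-only). Its tests rest on another estimate of the spread, and the cause of the gap was not tested. limma-voom gave 1 DP and 1 shared call. At an adjusted p under 0.10 there were 420 DN and 243 mean effect calls. Leaving out single libraries gave 0 to 3 difference, 3 to 9 DP, 22 to 229 DN, 3 to 9 shared, 0 to 3 DN-only and 16 to 113 mean effect calls. Leaving out DN isotype replicates 2 and 3, whose deviations from the group mean were opposed (correlation -0.762), gave 0 difference, 11 DN and 20 mean effect calls, with the lone isotype library assumed to vary like the other groups.

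Pairing was not established. Of 6 pairs by the SK number in the sample names, 3 had correlated deviations over 0.1 (range -0.006 to 0.326), and 5 of 6 DP libraries correlated best with their own number, a hint from the data only. Of 18 pairs by title number, 3 did (range -0.334 to 0.383). A block by title number gave 1 difference, 4 DP, 59 DN, 2 shared, 1 opposed and 45 mean effect calls, a block by SK number 1 difference call (Hbb-b1), and a random SK block in limma-voom 1 DP, 217 DN and 1 shared call.

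Among 60 gene differences, 5 changed sign in some alternative. The Nr4a1 difference of effects was -0.00466 with a mean of at least 50 counts, -0.0509 without DN isotype replicates 2 and 3, and -0.155 to 0.171 without single libraries, being below 0 without DP blockade replicate 1 (-0.0267), DP isotype replicate 2 (-0.114), DN blockade replicate 1 (-0.0376), DN blockade replicate 3 (-0.026) or DN isotype replicate 2. Without single libraries the Nr4a2 difference of effects ran between -0.241 and 0.0148, the B4galt5 difference of effects between -0.183 and 0.0242, and the Cx3cr1 difference of effects between -0.673 and 0.0291. The Mki67 difference of effects was 0.20 without DN isotype replicates 2 and 3. DESeq2 called 21 of the 60 and gave some of the others no adjusted p. Of 33 list medians, 13 changed sign in some setting. Depth limits genes near 1 CPM in the smaller DN libraries.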

Other observations

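Foxp3, the factor of regulatory T cells, averaged 23.7 ± 8.36 CPM in DP blockade and 10.4 ± 4.93 CPM in DP isotype libraries, and 2.79 ± 0.84 CPM in DN blockade and 1.08 ± 0.93 CPM in DN isotype libraries (SD, n = 3 each). Its effects of 1.18 in DP and 1.39 in DN cells passed no test. Tnfrsf4 (OX40), which such cells also carry, had an effect of 0.03 in DP and 1.47 in DN cells (adjusted p = 0.0415 in DN, edgeR). The list of 7 CD4 and regulatory T cell markers was split. In 3 the effect was above 0 in both populations, in 2 above 0 in DP cells alone and in 2 above 0 in DN cells alone. Their sum was 178 to 299 CPM in DP blockade and 184 to 249 CPM in DP isotype libraries. In DN cells it was 92.4 to 136 CPM under blockade and 142 to 178 CPM under isotype. The MHC class II pathway genes Cd74, H2-Aa and H2-Ab1 had differences of 1.12, 0.98 and 0.96, with effects above 0 in DP and below 0 in DN cells.

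Ung, a uracil glycosylase of DNA repair, averaged 25.3 ± 3.29 CPM in DP blockade and 14.5 ± 3.0 CPM in DP isotype libraries, and 14.3 ± 3.05 CPM in DN blockade and 21.0 ± 4.36 CPM in DN isotype libraries. Its difference was 1.35 with an interval of 0.69 to 2.02. Zfp36l2, a factor that destabilises cytokine transcripts in memory T cells, was lower in both populations, by -0.88 on the log2 scale in DP and -0.40 in DN cells, and passed the test of the mean effect (adjusted p = 0.028, edgeR).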
